A study of Caenorhabditis elegans with 45 samples.

Results

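Worms of Caenorhabditis elegans that had left the dauer stage were compared between hours 12 to 14 and hours 20 to 22 after they were given food. In this step of 8 hours most sperm, oocyte, eggshell and yolk genes and part of the adult collagens rose. Meiosis and germ granule genes were on in both windows. The comparison used 6 of the 45 libraries of the series, 3 in each window, chosen by the hour and course in the sample labels. All 6 came from N2, the standard wild-type laboratory strain, fed the bacterium OP50 on agar plates, with the time at which dauer larvae (a stress-resistant resting larval form) received food counted as hour 0. Polyadenylated RNA of whole worms was measured. Each hour was sampled in 1 library, so the 3 hours of a window took the place of replicates, and the spread within a window holds both scatter and any trend across its hours. The other 16 hours of the same course, 16 libraries of N2 grown continuously from hatched first-stage larvae, and 7 libraries of the mutant glp-4(bn2), also grown continuously and taken at hours 40 to 52, were used only for reference. glp-4(bn2) is temperature sensitive and has few germ cells at the restrictive temperature, and the labels do not state its growth temperature.

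A hermaphrodite of this species makes sperm first, in its last larval stage, and then switches its germ line for good to making oocytes. Germ cells that enter meiosis during sperm production switch on genes for major sperm proteins, the cytoskeleton of the crawling sperm, while later germ cells load oocytes with maternal mRNAs and eggshell proteins. The intestine makes yolk proteins, the vitellogenins, which pass through the body cavity and are taken up by oocytes. In the same period the epidermis makes its last cuticle, which uses collagens of the adult, and the molting cycle ends.

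Counts per library lay between 18566729 and 20967512 in the 6 libraries. Levels are given as CPM, a gene's counts scaled to the total counts of its library, and they are not corrected for gene length. A gene is said to have risen or fallen where edgeR's quasi-likelihood test gave a Benjamini-Hochberg adjusted p under 0.05 over all tested genes and the log2 fold change was at least 1 in size. By that rule 2190 of 14815 tested genes rose (14.8%) and 849 fell (5.73%), and the median log2 fold change over all tested genes was 0.02. These percentages are the background for the counts of each gene group. A gene near 0 CPM early passed the filter on low counts through the late window, so its rise says little more than late detection. The change in the rising genes was large, with a median of 4.03 on the log2 scale (4.01 with the 68 genes that had no counts in the early window set at their lower bound), and 1460 of them changed by 3 or more. The falling genes had a median of -1.39, and 94 of them reached -3. Because whole worms were measured and CPM is a share of all counts, fewer cells of a type, less RNA per cell and more RNA from other cells cannot be told apart. Without hour 21 the count of falling genes was 364 and without hour 13 it was 392.

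The working name of the comparison, an intermolt set against the late L4 larval stage, was checked against molting and cuticle genes. The summed level of 21 molting cycle genes was highest at hour 8 (16195 CPM) and again at hour 16 (10638 CPM). It was 514, 814 and 3864 CPM at hours 12, 13 and 14 and 652, 336 and 210 CPM at hours 20, 21 and 22. Hour 14 was thus already on the second wave, and hours 20 to 22 lay after it. The adult cuticle collagen gene col-19 stood at 614, 1424 and 2119 CPM in those last libraries. The data therefore place the late window past the second peak of molting transcripts, with an adult collagen already on, and the windows are called here by their hours.

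**Figure D1:**
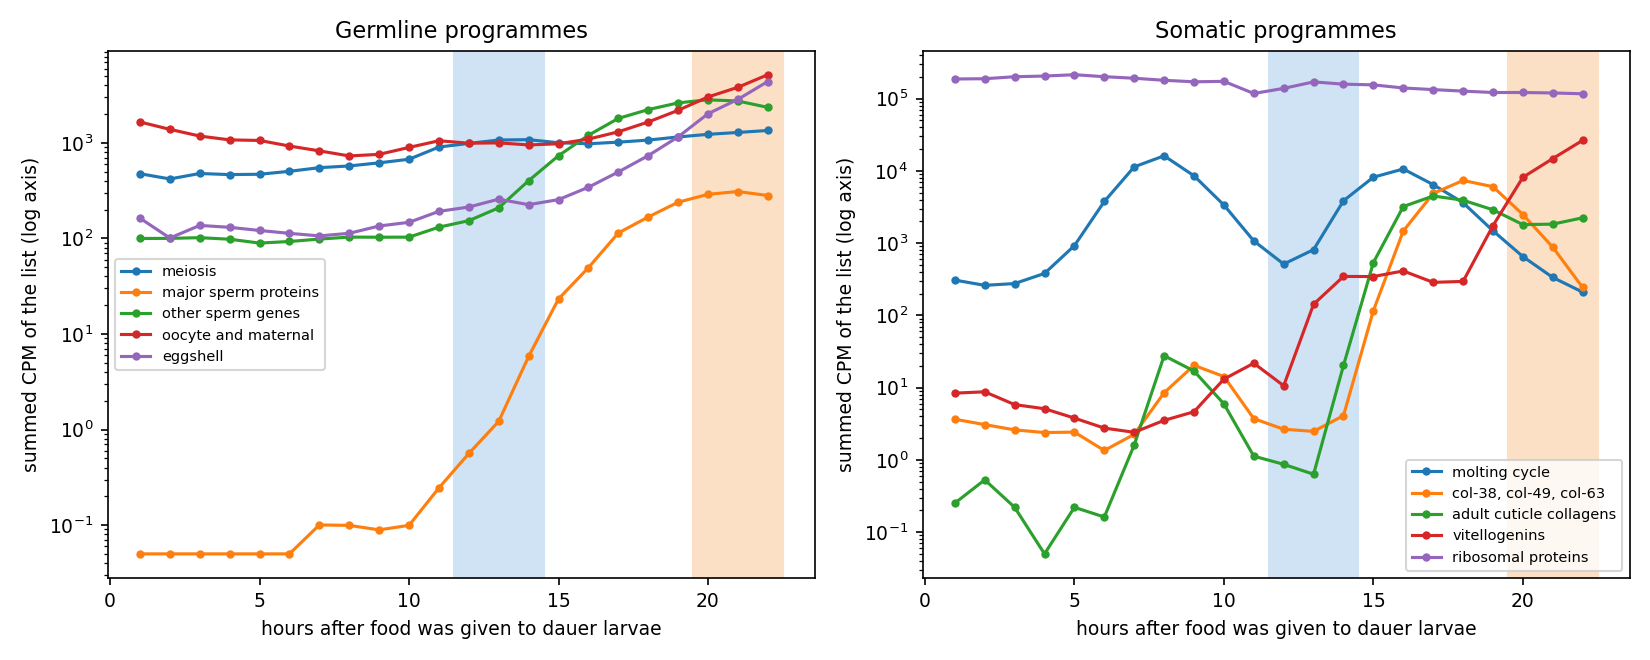
Summed CPM (log axis) of the genes of each list at every hour of dauer exit, 1 library per point, with the germline lists on the left and the somatic lists on the right; the early window is shaded blue and the late window orange, and sums under 0.05 CPM are drawn at 0.05. The meiosis genes moved from 988 CPM at hour 12 to 1348 CPM at hour 22, while the major sperm protein sum went from 0.562 to 281 CPM and the vitellogenin sum from 10.6 to 26525 CPM.

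fog-3 and fog-1, which promote the sperm fate, fell between the windows. fog-3 (WBGene00001483; chromosome I, 10016765 to 10018121, WBcel235), which specifies sperm, stood at 43.5, 38.1 and 38.6 CPM at hours 12, 13 and 14 and at 5.96, 4.60 and 4.41 CPM at hours 20, 21 and 22. The windows were far apart, and its log2 fold change was -2.88 ± 0.16 (SE, n = 3 libraries per window, edgeR adjusted p = 0.000701). fog-1, which acts at the same step, fell from 45.4, 38.2 and 28.5 CPM to 10.4, 13.4 and 12.2 CPM, a log2 fold change of -1.51 ± 0.20. gld-1, an RNA-binding translational repressor that guards meiotic germ cells and is needed for oocyte development, rose from 117, 177 and 195 CPM to 503, 532 and 603 CPM (1.86 ± 0.23).

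Of the 20 genes of germ cell fate, all tested, 3 rose and 2 fell, with a median log2 fold change of 0.14. Besides gld-1 the rising members were fem-3, a sex determination gene that promotes the male fate and is also carried into the embryo by the mother, with 9.81, 7.99 and 8.24 CPM before and 19.5, 28.0 and 37.1 CPM after, and gld-3, a binding partner of the poly(A) polymerase GLD-2 (1.29 ± 0.19, named after its values were seen). The Notch receptor gene glp-1, which keeps germ cells in mitosis, had 68.5 to 74.3 CPM early and 83.8 CPM or more late, a log2 fold change of 0.62 ± 0.15 that is under the fold required. In glp-4(bn2) fog-3 did not exceed 0.382 CPM and gld-1 did not exceed 5.39 CPM.

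Sperm genes came on between the windows. The 30 major sperm protein genes together gave 0.562, 1.22 and 5.82 CPM at hours 12, 13 and 14, and 290, 310 and 281 CPM at hours 20, 21 and 22. The summed level was thus already climbing inside the early window and was level in the late one. In the 7 glp-4(bn2) libraries the same 30 genes summed to at most 0.0851 CPM.

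msp-40 (WBGene00003435; chromosome II, 4825414 to 4825797, WBcel235) had 0.0511, 0.243 and 2.05 CPM early and 55.9, 50.7 and 50.4 CPM late, with a log2 fold change of 6.19 ± 1.07 (edgeR adjusted p = 0.00974). msp-76 went from 0, 0.146 and 0.215 CPM to 29.1, 31.3 and 32.6 CPM. Its late libraries were all above its early ones, as were those of msp-142, with 0.153, 0.195 and 0.916 CPM against 33.7, 35.5 and 27.3 CPM. Of the 30 genes 16 passed the filter on low counts, and they passed it through the late window, so that all 16 rose says little more than that they were detected late. Of the 14 others, 9 had no counts in any of the 6 libraries. The copies of this family are nearly identical, and the labels do not say how shared reads were assigned, so the values of single copies are uncertain.

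Other sperm genes behaved more variedly. Of 52 genes (spe, fer, ssp and nspd genes and the sperm phosphatases gsp-3 and gsp-4), 48 were tested and 42 rose, with a median log2 fold change of 4.65, and none fell. Their summed level was 153, 209 and 402 CPM in the early window and 2824, 2743 and 2352 CPM in the late one. spe-11 (WBGene00004965; chromosome I, 5330578 to 5332169), whose protein is delivered by sperm to the egg, had 0.460, 0.633 and 2.85 CPM before and 92.1, 90.7 and 75.1 CPM after (6.15 ± 0.76). spe-9, a sperm surface protein needed for fertilization, had 1.17, 1.41 and 2.91 CPM before and 16.2, 13.5 and 9.86 CPM after (2.96 ± 0.43). Both were highest at hour 19 and lower at each later hour. nspd-10 and ssp-19 were among the widest changes of the group, at 0, 0.195 and 0.646 CPM against 57.1, 65.2 and 65.8 CPM for nspd-10, and about 1 count in each early library against 13.1, 14.8 and 18.4 CPM for ssp-19. Such members, near 0 early, passed the filter on low counts through the late window. Their part of the 42 says little more than that they were detected late.

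6 tested members did not pass. spe-44, a transcription factor that starts the sperm programme, had 11.8, 23.9 and 49.7 CPM early and 31.7, 26.3 and 22.4 CPM late, so the windows overlapped. fer-1, needed for membrane fusion during sperm activation, had 8.84, 31.0 and 56.5 CPM against 57.7, 51.7 and 37.9 CPM, and spe-4, a presenilin of sperm organelles, had 4.03, 10.5 and 25.7 CPM against 59.7, 51.2 and 37.7 CPM. These 3, with spe-19, spe-39 and spe-48, are the tested members without a call, and they were named after their values were seen. spe-48 was level throughout, at 29.0 to 34.8 CPM early and 27.7 to 30.9 CPM late, and it was as high in glp-4(bn2), at 25.9 to 33.5 CPM. For gsp-3, with 0.817, 3.90 and 19.0 CPM against 230, 220 and 172 CPM (4.82 ± 1.13), the adjusted p by edgeR was 0.0233 and lay between 0.0513 and 0.0909 without hour 13, 20, 21 or 22. Of the tested members spe-39, spe-48 and ssp-37 were not low in glp-4(bn2) by the measure given further on, and ssp-37 is the one of them that rose. It reached 8.03 CPM in the mutant and had no counts early and 2.34, 6.57 and 8.38 CPM late. Set against 3 counts over the early window, the limit that a count of 0 allows, this is at least 113-fold higher.

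Germ granule and meiosis genes, by contrast, were on in both windows. Of 16 genes of P granules and germline small RNAs, 4 rose and none fell, with a median log2 fold change of 0.69. cgh-1, an RNA helicase that protects maternal mRNAs, rose from 219, 290 and 308 CPM to 1060, 1191 and 1500 CPM (2.32 ± 0.21), and its partner car-1 from 220, 241 and 249 CPM to 637, 741 and 910 CPM (1.81 ± 0.16). glh-2, a Vasa-family helicase, and the Argonaute gene wago-1 also rose, by 1.57 ± 0.13 and 1.21 ± 0.16. The related helicase gene glh-1 had 751, 700 and 667 CPM early and 732, 729 and 712 CPM late, so its windows overlapped (0.16 ± 0.07, adjusted p = 0.126). pgl-1, a scaffold of P granules, stood at 380, 427 and 418 CPM and then at 570, 579 and 595 CPM, a separate but small difference of 0.63 ± 0.09.

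Among 26 meiosis genes 2 rose and none fell, and the median log2 fold change was 0.59. him-3, part of the axis of meiotic chromosomes, had 68.1, 79.3 and 91.3 CPM before and 87.8, 87.8 and 85.8 CPM after (0.25 ± 0.13, adjusted p = 0.195), and syp-1, of the synaptonemal complex, had 69.3 to 76.2 CPM before and 73.6 to 81.7 CPM after. The 2 that rose were named after their values were seen. spo-11, the enzyme that cuts DNA to start recombination, went from 18.7, 20.7 and 21.1 CPM to 34.2, 36.4 and 45.5 CPM (1.06 ± 0.15), just past the fold required. lab-1, which protects cohesion between chromosome arms in oocyte meiosis, went from 1.95 to 2.26 CPM to 30.7, 35.4 and 36.7 CPM (4.12 ± 0.15, edgeR adjusted p = 0.000381). The count of 2 rising genes changed with the setting and was 1 without hour 12 or hour 22 and with scaling by library size alone.

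Oocyte and maternal genes rose as a group and were still climbing at the last hour. Their 27 genes summed to 992, 1000 and 951 CPM at hours 12, 13 and 14 and to 3023, 3817 and 5170 CPM at hours 20, 21 and 22. Of the 27, 22 rose and none fell, with a median log2 fold change of 2.50. In the glp-4(bn2) libraries the sum was 199 to 406 CPM.

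puf-5 (WBGene00004241; chromosome II, 8575541 to 8577787), an RNA-binding protein of growing oocytes, stood at 6.08, 7.89 and 7.54 CPM and then at 125, 211 and 323 CPM, a log2 fold change of 5.06 ± 0.42 (edgeR adjusted p = 0.00163). puf-3, of the same family, went from 10.2, 9.93 and 11.0 CPM to 141, 192 and 280 CPM. The early values of both were flat, and the late values increased with every hour. The zinc finger genes oma-1 and oma-2, which act together in oocyte maturation, went from 21.6, 29.5 and 30.9 CPM to 86.3, 118 and 165 CPM and from 8.94, 10.9 and 9.05 CPM to 49.2, 77.5 and 131 CPM. rme-2, the receptor through which oocytes take up yolk, went from 33.6, 31.3 and 27.3 CPM to 175, 236 and 399 CPM (3.26 ± 0.34). The latest to appear were nos-2 and meg-1, maternal genes of the embryo's germ lineage. meg-1 had 0, 0.292 and 0.485 CPM early and 9.73, 19.9 and 44.1 CPM late, and nos-2 had 4 counts over the early window and 5.06, 6.52 and 10.7 CPM late. Both passed the filter on low counts through the late window, so their rise says little more than late detection.

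Members without a call, named after their values were seen, were skn-1 (136 to 184 CPM early, up to 154 CPM late), mbk-2, mei-1, daz-1 and meg-2. The first 4 of these had been on since the early window or before, at 22.9 CPM or more, whereas meg-2 was low early and reached 7.70 CPM at hour 22 (3.45 ± 1.11, adjusted p = 0.0579). lin-41, which blocks premature oocyte maturation and also acts in larval stage timing, had 88.7, 80.9 and 60.3 CPM early and 126, 159 and 217 CPM late (1.25 ± 0.24). It was far higher at hour 1, at 733 CPM, and its adjusted p of 0.0132 became 0.0539 without hour 13.

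All 13 eggshell genes rose, with a median log2 fold change of 2.85 and a median hour of 21 for the first CPM of at least 50% of the maximum of the course. Their sum was 213, 258 and 226 CPM early and 2018, 2854 and 4389 CPM late. cpg-2 (WBGene00015102; chromosome III, 7102092 to 7103990), a chondroitin proteoglycan of the eggshell, went from 51.3, 42.6 and 35.0 CPM to 528, 764 and 1083 CPM (4.33 ± 0.33, edgeR adjusted p = 0.00137). egg-1, a receptor-like protein of the oocyte surface needed for fertilization, went from 11.0, 12.2 and 13.1 CPM to 125, 181 and 281 CPM. cbd-1, a chitin-binding protein of the vitelline layer, started higher, at 55.1, 96.1 and 75.8 CPM, and reached 292, 390 and 717 CPM. Both were highest at hour 22.

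The pair perm-2 and perm-4, needed for the permeability barrier of the eggshell, stood apart. perm-4 had 0, 1.70 and 3.29 CPM early and 325, 438 and 614 CPM late, and perm-2 had 0.0511, 0.438 and 1.18 CPM early and 145, 244 and 363 CPM late. These were the largest changes of the list (8.22 ± 1.30 and 8.93 ± 0.95). In glp-4(bn2) perm-2 reached 572 CPM and perm-4 971 CPM, while the other 11 eggshell genes were low there, with a highest value more than 4 times below the lowest late library. cpg-2, for example, did not exceed 1.15 CPM and egg-1 did not exceed 0.397 CPM in that mutant.

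**Figure D2:**
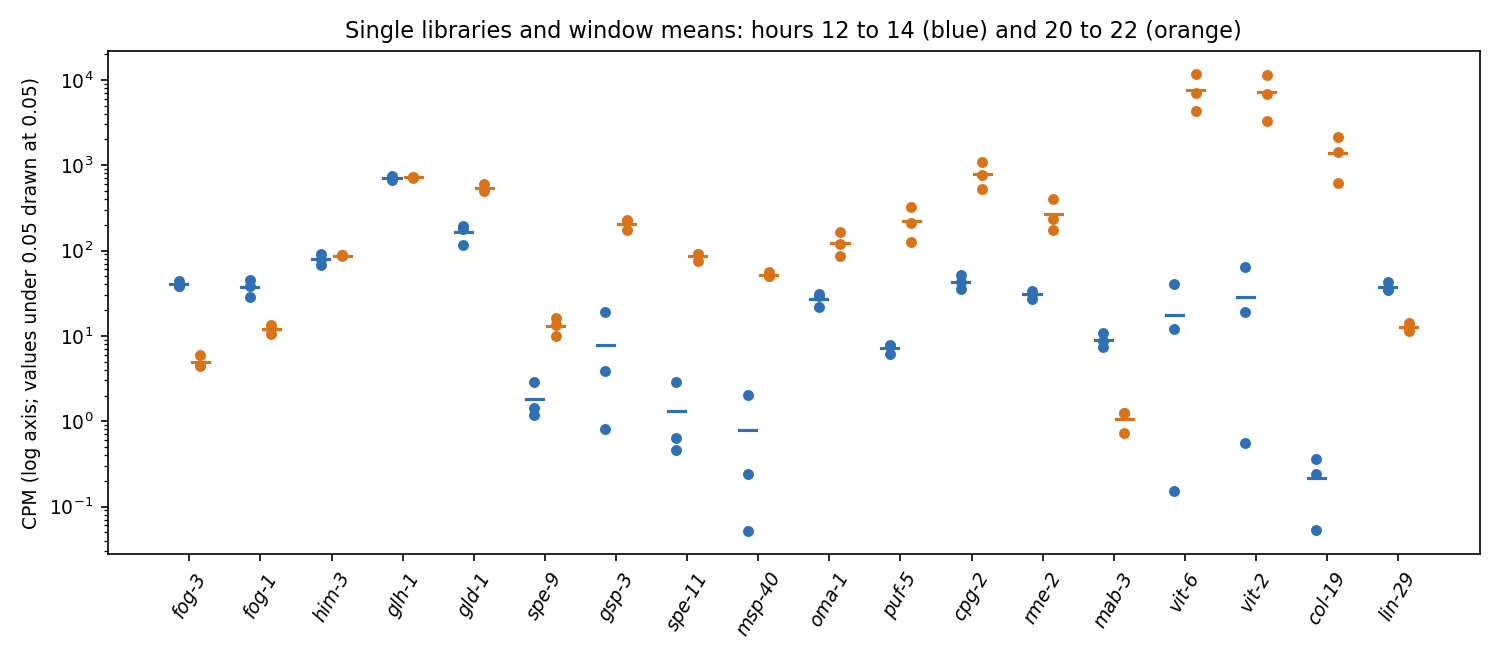
CPM (log axis) of 18 genes in the 3 libraries of hours 12 to 14 (blue) and of hours 20 to 22 (orange), with a bar at the mean of each window; values under 0.05 CPM are drawn at 0.05. fog-3, fog-1, mab-3 and lin-29 lie lower late, the points of him-3 and glh-1 overlap, and the sperm, oocyte, eggshell, yolk and col-19 points are separate and higher late.

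Yolk transcripts made up a visible part of the RNA by the end. The 6 vitellogenin genes summed to 10.6, 143 and 346 CPM at hours 12, 13 and 14 and to 8157, 14820 and 26525 CPM at hours 20, 21 and 22. vit-6 (WBGene00006930; chromosome IV, 8261157 to 8266459) went from 0.153, 11.9 and 40.0 CPM to 4300, 6959 and 11813 CPM, a log2 fold change of 8.89 ± 1.89 (edgeR adjusted p = 0.0173). vit-2 (WBGene00006926; chromosome X, 5101042 to 5106169) went from 0.562, 19.2 and 64.8 CPM to 3294, 6769 and 11496 CPM (8.10 ± 1.79, adjusted p = 0.0196). Both genes increased at each hour of both windows, with a pause between them, where the summed level was 287 to 413 CPM from hour 15 to hour 18 and then 1747 CPM at hour 19.

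The other members started later. vit-5 had 1 count over the early window and 38.6, 107 and 363 CPM late, and vit-3 had no counts early and 7.68, 6.14 and 54.6 CPM late, at least 446-fold higher when 3 counts are assumed for the early window. vit-4 had 3 counts early and 4.91, 9.01 and 63.4 CPM late. vit-3, vit-4 and vit-5 passed the filter on low counts through the late window, so their rise says little more than late detection. vit-1, the member without a call, was named after its values were seen and had the highest early level, at 9.86 CPM for hour 12 and 241 CPM for hour 14, against 512, 969 and 2735 CPM late (3.65 ± 1.25, adjusted p = 0.0703). In all 6 the late libraries stood above the early ones. The median log2 fold change was 8.92 (8.85 with vit-3 at its bound).

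Several of these calls were lost when a library was left out, while the fold changes stayed close. Without hour 13 the adjusted p by edgeR was 0.0853 for vit-2, 0.0642 for vit-3, 0.0501 for vit-4 and 0.0805 for vit-6, and without hour 21 it was 0.0581 for vit-2, 0.0544 for vit-3 and 0.0543 for vit-6, so that 1 and 2 genes of the list kept their call in these settings. The log2 fold changes without hour 13 and without hour 21 were 7.88 and 8.15 for vit-2, 8.68 and 8.97 for vit-6, and 11.90 and 12.37 for vit-3. vit-3, vit-4 and vit-5 are close copies, and their single values are uncertain. In glp-4(bn2) the vitellogenin sum was 3814 to 37698 CPM, a range that overlaps that of the late window.

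Of 8 genes that control yolk transcription none rose and 2 fell. mab-3 (WBGene00003100; chromosome II, 9732137 to 9738035), known for holding yolk genes off in males, went from 10.7, 8.67 and 7.38 CPM to 1.24, 1.25 and 0.736 CPM (-2.92 ± 0.28, edgeR adjusted p = 0.00227) after a highest value of 21.4 CPM at hour 16. lin-29, a zinc finger factor of the larva-to-adult switch, went from 35.2, 34.8 and 42.7 CPM to 11.5, 12.7 and 14.0 CPM (-1.44 ± 0.15). ceh-60, a homeodomain activator of yolk genes, had 14.4 to 22.0 CPM early and 20.1 to 21.6 CPM late, so its windows overlapped. elt-2, the main GATA factor of the intestine and named after its values were seen, had 35.5, 34.1 and 26.3 CPM against 21.1, 29.7 and 20.5 CPM and did not pass the test.

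Collagens of the last cuticle came on and were partly over by the late window. col-19 (WBGene00000608; chromosome X, 421707 to 422691), the standard marker of the adult cuticle, had 0.358, 0.243 and 0.0539 CPM early, 13 counts in all, and 614, 1424 and 2119 CPM late (12.70 ± 0.87, edgeR adjusted p = 0.00115). rol-1 had 1 count early and 1075, 368 and 106 CPM late, past its highest value of 2657 CPM at hour 18. Both col-19 and rol-1 passed the filter on low counts through the late window, so their calls say little more than late detection. bli-1, of the struts of the adult cuticle, was highest at hour 16 (1834 CPM). It had 0.204, 0.292 and 10.7 CPM early and 51.1, 19.8 and 12.1 CPM late, and did not pass the test (2.99 ± 1.54, adjusted p = 0.181). bli-2 (named after its values were seen) had a similar course, with 9.53 CPM at hour 14 and 8.92 CPM at hour 22. Without hour 14 both of these passed, bli-1 with 6.89 (adjusted p = 0.00693), and 4 genes of the list rose in place of 2. The other members, col-7 and col-62, had no counts in the 6 libraries.

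The 3 collagens col-38, col-49 and col-63 behaved like rol-1. Together they gave 2.66, 2.48 and 4.09 CPM early and 2493, 880 and 244 CPM late, with 7381 CPM at hour 18. All 3 rose, col-63 from no counts to 767, 278 and 73.3 CPM, at least 7292-fold higher when 3 counts are assumed for the early window. col-63 passed the filter on low counts through the late window, so its call says little more than late detection. Its adjusted p by edgeR was 0.0119, and 0.0504 without hour 21.

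Molting genes had their waves outside the late window. Of 21, none rose and 3 fell, with a median log2 fold change of -2.05. fbn-1, a fibrillin-like matrix protein, had 40.9, 227 and 971 CPM early and 6.72, 4.46 and 5.30 CPM late (-6.13 ± 1.28), and let-653, a matrix protein that lines epithelial tubes, went from 33.2, 89.9 and 226 CPM to 3.53, 3.40 and 5.59 CPM. nhr-25, a nuclear receptor of the epidermis, went the other way inside the early window, from 42.6 and 23.8 to 14.3 CPM, and had 6.25, 3.45 and 1.72 CPM late. mlt-10 had 30.0, 11.6 and 12.9 CPM early and 90.9, 32.4 and 10.2 CPM late, overlapping, between peaks of 1405 CPM at hour 9 and 977 CPM at hour 17. The call of fbn-1 (adjusted p = 0.0164, edgeR) was lost without hour 20, 21 or 22, with values of 0.0518 to 0.0739, and that of nhr-25 (0.0206) without hour 13 or 21, with 0.0633 and 0.0846. The number that fell was 7 without hour 12 and 1 without hour 21.

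Of 9 stage-timing genes of the larva, 4 fell and 1, lin-41, rose, and the median log2 fold change was -0.81. hbl-1, which promotes early larval fates, went from 14.8, 16.8 and 18.6 CPM to 3.24, 4.55 and 5.39 CPM (-1.81 ± 0.24, edgeR adjusted p = 0.00479). mab-10, a cofactor of lin-29, had 25.0, 60.6 and 95.3 CPM early and 13.0, 13.3 and 15.9 CPM late (-1.99 ± 0.49), and lin-46, which acts against hbl-1, had 13.7, 10.1 and 4.90 CPM early and 2.91, 3.74 and 3.24 CPM late (-1.41 ± 0.39). The calls of lin-29 and hbl-1 held when any single library was left out. Those of mab-10 (adjusted p = 0.0276) and lin-46 (0.0367) did not, with values up to 0.100 for mab-10 and 0.110 for lin-46, so that 2 genes of the list fell without hour 13, 20, 21 or 22, and lin-41 did not pass without hour 13.

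Genes of DNA replication and division rose in 12 of 30 cases, and none fell (median log2 fold change 0.90). The mitotic cyclin gene cyb-1 (WBGene00000865; chromosome IV, 10735216 to 10737177) went from 63.7, 55.9 and 56.6 CPM to 310, 340 and 331 CPM (2.60 ± 0.09, edgeR adjusted p = 0.000378). cyb-2.2 and cyb-2.1 went from 11.0, 11.7 and 13.2 CPM to 74.8, 101 and 135 CPM and from 9.09, 8.86 and 9.53 CPM to 48.5, 62.7 and 88.8 CPM, and these paralogs may share reads. cyb-3 rose by 1.80 ± 0.28. In the late window all 4 were more than 4 times above their highest level in glp-4(bn2), where cyb-1 did not exceed 9.99 CPM. The replicative helicase subunit gene mcm-4, named after its values were seen, had 93.1, 90.0 and 80.5 CPM early and 75.1, 79.0 and 108 CPM late, and all 6 mcm genes stayed under the required fold.

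Somatic gonad genes had few calls. Of 11 tested genes of the somatic gonad, 2 rose (median 0.06), the innexins inx-8 and inx-9, which form gap junctions between sheath cells and germ cells. inx-8 had 21.1, 25.6 and 32.0 CPM early and 45.8, 51.7 and 56.8 CPM late, and inx-9 had 6.38, 9.45 and 10.6 CPM against 21.0, 19.5 and 21.3 CPM (both named after their values were seen). 1 of them passed without hour 12 or hour 13.

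Of 18 genes of the vulva and of egg laying 7 fell and 1 rose, with a median of -0.69. The summed level of the 18 was 689 CPM at hour 1, 302 CPM at hour 12 and 232 CPM at hour 22. lin-12, a Notch receptor of vulval and gonadal cell fates, went from 36.9, 31.1 and 23.3 CPM to 10.7, 9.35 and 7.80 CPM (-1.59 ± 0.21, edgeR adjusted p = 0.00454), and egl-15, an FGF receptor, from 52.0, 50.8 and 42.4 CPM to 12.5, 13.9 and 21.5 CPM (-1.48 ± 0.24). vab-23, a transcription factor of vulva morphogenesis, went from 20.3, 19.1 and 16.7 CPM to 7.77, 5.61 and 3.68 CPM (-1.60 ± 0.29). The one that rose was tdc-1, tyrosine decarboxylase, made in neurons and in cells of the gonad and uterus, from 14.1, 12.8 and 14.5 CPM to 40.9, 55.7 and 87.7 CPM (2.28 ± 0.30). The call of vab-23 (adjusted p = 0.0111) was lost without hour 21, at 0.0537, and the number that fell was 4 without hour 13 and 3 without hour 21.

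Genes first transcribed in embryos stayed near 0, so no embryonic programme was visible in these worms at this depth. Of 14 such genes 1 passed the filter on low counts, the T-box gene tbx-9 (named after its values were seen), with 1 count early and 1.81, 3.79 and 5.74 CPM late. No other member exceeded 0.441 CPM in any of the 6 libraries.

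Markers of muscle, pharynx, neurons and intestine had 0 to 3 calls a list in either direction. Among 20 body-wall muscle genes 2 rose, the troponin genes unc-27 and tnt-2, and the median was 0.22. unc-54, the main myosin of body-wall muscle, had 3822, 3967 and 4378 CPM early and 5904, 6021 and 5721 CPM late, which is separate but under the required fold (0.66 ± 0.09). unc-27 and tnt-2, named after their values were seen, changed by 1.04 ± 0.17 and 1.18 ± 0.22, and neither passed without hour 12.

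In the pharynx 3 of 9 genes fell (median -0.88). The summed level of the 9 went up and down over the course. It was 3622 CPM at hour 3, 851 CPM at hour 8 and 2967 CPM at hour 12, then 602 CPM at hour 17 and 1426 CPM at hour 22. The windows thus lay on unlike parts of this course, and a lasting fall cannot be read from them. myo-1, a pharyngeal myosin, had 960, 886 and 741 CPM early and 302, 392 and 458 CPM late (-1.04 ± 0.18), so that the late values were increasing again. tnc-2, a troponin C, changed by -1.08 ± 0.21 and ceh-22, a homeodomain factor of pharyngeal muscle, by -1.35 ± 0.29. Without hour 13, 20 or 21 1 gene of the list fell: the adjusted p of ceh-22 was 0.0662 without hour 13 and 0.0806 without hour 21, that of tnc-2 was 0.0598 without hour 13 and 0.0590 without hour 21 (edgeR), and without hour 20 myo-1 and tnc-2 were under the required fold, at -0.89 each.

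Among 27 neuronal genes 3 fell and none rose, and the median was -0.63. The summed level of the 27 was 2700 CPM at hour 1, 1083 CPM at hour 12 and 638 CPM at hour 22, so the decrease was not limited to this step. In 25 of the 27 all late libraries lay below all early ones, a pattern that 31.2% of all tested genes had. unc-86, a factor of neuronal identity, had 6.95, 5.11 and 4.79 CPM early and 1.81, 2.01 and 1.23 CPM late (-1.61 ± 0.26, edgeR adjusted p = 0.0083), and unc-10, of the presynaptic active zone, changed by -1.09 ± 0.17. mec-4, the touch channel, changed by -1.20 ± 0.32 (adjusted p = 0.0330), a call that was lost without hour 12, 13, 21 or 22, with values from 0.0541 to 0.111.

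Of 15 intestinal genes 2 rose (median -0.12), both named after their values were seen. mtl-2, a metallothionein, had 6.08, 6.04 and 5.22 CPM early and 96.7, 82.7 and 62.6 CPM late (3.92 ± 0.19), and cpr-6, a cathepsin-like protease, had 82.2 to 231 CPM against 824, 385 and 296 CPM (1.94 ± 0.56, adjusted p = 0.0428). The list had 1 rising gene when any library other than hour 14 was left out.

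Ribosomal protein genes had a median of -0.26 over 76 genes, and 68 of them were lower in all late libraries than in all early ones, as were 31.2% of all tested genes. None fell by the rule and 1 rose. That gene, rpl-42, named after its values were seen, had 0.204, 0.0974 and 0.108 CPM early and 10.4, 10.6 and 11.3 CPM late (6.36 ± 0.30, edgeR adjusted p = 0.000551). It passed the filter on low counts through the late window, so its rise says little more than late detection. It did not exceed 0.0590 CPM in glp-4(bn2). Of 8 housekeeping controls none rose or fell by edgeR, and their median was 0.21, with a range of -0.34 to 0.91. ama-1, which encodes the largest RNA polymerase II subunit, had 285, 266 and 261 CPM early and 196, 192 and 202 CPM late (-0.34 ± 0.07).

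**Figure D3:**
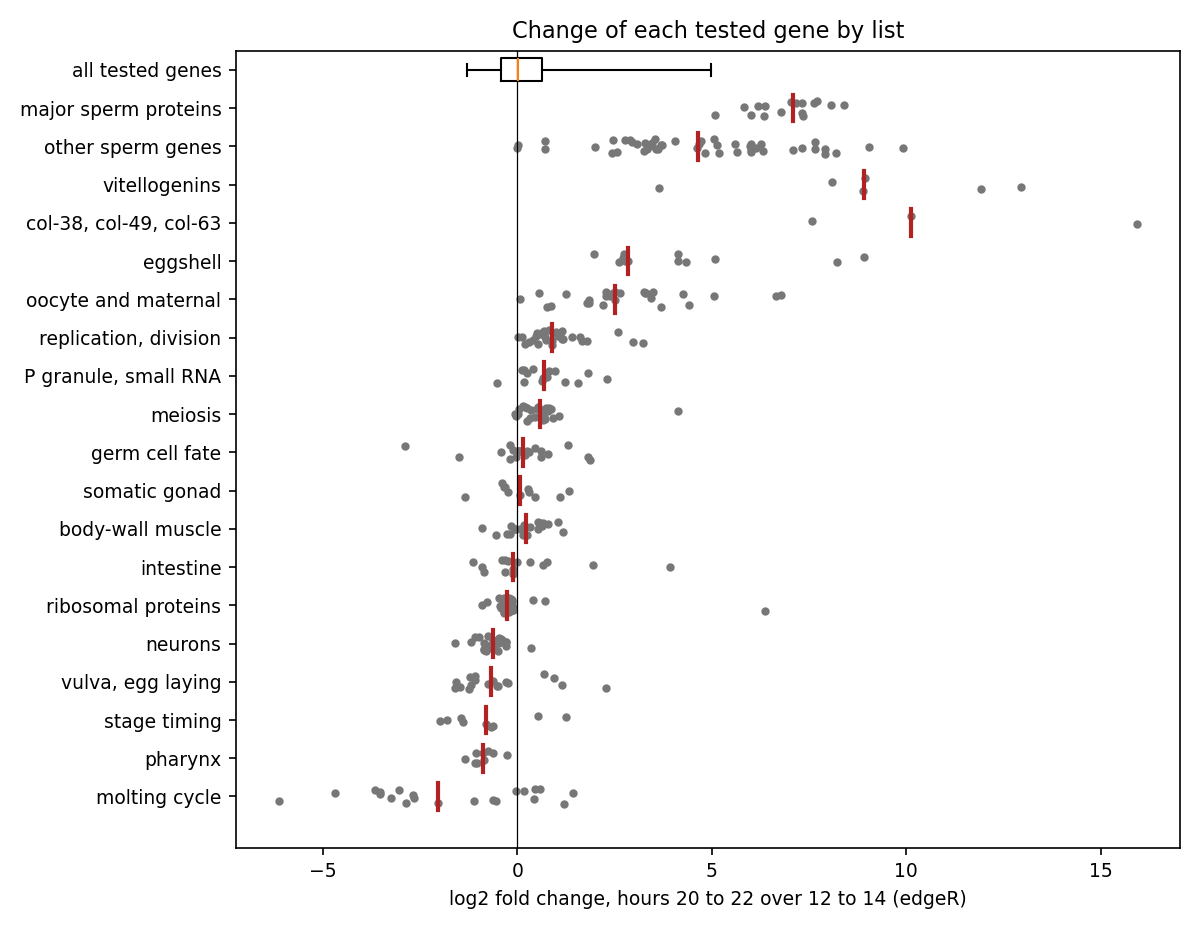
Log2 fold change of hours 20 to 22 over hours 12 to 14 (edgeR) for each tested gene of 19 lists, 1 grey point per gene with a red bar at the median of the list; the top row is a box plot of all 14815 tested genes with whiskers at the 5th and 95th percentiles. Medians range from 10.13 for col-38, col-49 and col-63, 8.92 for the vitellogenins and 7.10 for the major sperm proteins down to -2.05 for the molting cycle genes.

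Among all genes with a symbol and at least 10 CPM in the late window, the 10 largest rises were those of col-63, rol-1, ttr-14, ule-5, C44B7.5, Y37D8A.19, ZK813.3, Y45F10C.4, ZK813.1 and C35B1.4. All 10 had either no counts or 1 count over the 3 early libraries, so they passed the filter on low counts through the late window. None of the 10 is one of the sperm, oocyte or eggshell genes above. ttr-14, of the transthyretin-related family, had 1 count early and 633, 527 and 313 CPM late. ule-5, a uterine lumin expressed gene by its name, had no counts early and 27.2, 108 and 219 CPM late, at least 2314-fold higher when 3 counts are assumed for the early window. C44B7.5 and Y37D8A.19, also without early counts, had 57.2, 85.7 and 113 CPM and 24.7, 69.2 and 116 CPM late. Y45F10C.4 (52.4, 74.7 and 63.8 CPM) and C35B1.4 (48.1, 55.3 and 57.2 CPM) were nearly level in the late window.

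ZK813.3 and ZK813.1 lie near each other on chromosome X (3441839 to 3442458 and 3446311 to 3446935, WBcel235). They had no counts early, and 13.3, 56.9 and 120 CPM and 6.72, 51.9 and 118 CPM late, increasing at each hour. Each of the 10 genes reached at least 96.2 CPM in glp-4(bn2). By edgeR the adjusted p of ule-5 (0.0119) was 0.0521 without hour 21, that of ZK813.3 (0.0145) was 0.0581 without hour 21, and that of ZK813.1 (0.0236) was 0.0503 to 0.0793 without hour 13, 21 or 22.

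The 10 largest falls among genes with at least 10 CPM in the early window were those of F10B5.3, col-176, fbn-1, ugt-57, dpy-6, Y39A1A.9, cdh-7, let-653, R03H10.2 and col-41. F10B5.3 had 68.3, 69.6 and 59.2 CPM early and 0.858, 0.288 and 0.245 CPM late, and R03H10.2 had 47.3, 49.1 and 45.9 CPM early and 2.29, 1.73 and 1.42 CPM late. These were steady within each window. The cuticle genes were not: the collagen col-176 had 108, 643 and 1404 CPM early and 10.2, 6.19 and 6.08 CPM late, dpy-6, a mucin-like protein of body shape, had 59.2, 387 and 570 CPM early, and the collagen col-41 went down from 292 through 72.9 to 23.7 CPM. cdh-7, a cadherin, and ugt-57, a glucuronosyltransferase, were also increasing at hour 14. The calls of dpy-6, cdh-7, ugt-57 and col-41 did not hold in every setting that left out a single library, with adjusted p by edgeR of up to 0.0601, 0.118, 0.0695 and 0.128.

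Most rising genes had been far lower in the first 11 hours of the course, though not always off. In 1590 of the 2190 (72.6%) the highest CPM of hours 1 to 11 was more than 4 times below the mean of the late window, against 12.2% of all tested genes. gld-1 and cbd-1 are among them, so a gene can meet this measure and still have been expressed before. The measure shares the late libraries with the test, so a larger share among rising genes is partly fixed by their selection. The first hour with at least 50% of the maximum of the course fell within hours 15 to 19 for 1574 of them (71.9%), within hours 20 to 22 for 355 (16.2%) and within hours 1 to 11 for 230 (10.5%). The falling genes had reached that level by hour 11 in 817 of 849 cases (96.2%). Over all tested genes the shares were 81.4% within hours 1 to 11, 12.2% within hours 15 to 19 and 2.61% within hours 20 to 22. The calls use libraries of the same course, so the shares of rising and falling genes are here too partly fixed by selection.

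The hour at which genes first reached 50% of their maximum differed between the groups. The median of that hour at 50% of the maximum was 17 for the other sperm genes, 18.5 for the tested major sperm protein genes, 20 for oocyte and maternal genes, 21 for eggshell genes and 22 for vitellogenins. For the last 3 groups the course ends while they still increase, so these hours are limited by the last sample and do not give the order of onset. The vitellogenin sum was already 143 and 346 CPM at hours 13 and 14, when the major sperm protein sum was 1.22 and 5.82 CPM. spe-9 reached the level at hour 16, gsp-3 and spe-11 at hour 17, msp-40 at hour 18, oma-1 at hour 20 and puf-5, cpg-2, vit-2 and vit-6 at hour 21.

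The levels in glp-4(bn2) split the rising genes. In 1550 of 2190 (70.8%) the highest CPM of the 7 mutant libraries was more than 4 times below the lowest late library, against 15.0% of all tested genes, and 640 were not low by this measure. It too uses the late libraries that made these genes pass as rising, so part of the difference in shares is fixed by selection. All 16 tested major sperm protein genes were low, as were 45 of 48 other sperm genes, 22 of 27 oocyte and maternal genes, 11 of 13 eggshell genes and 25 of 26 meiosis genes, whereas no vitellogenin was. Of the rising genes that were low in the mutant 84.1% reached 50% of their maximum in hours 15 to 19 and 13.0% in hours 20 to 22. Of the others 24.1% did so in hours 20 to 22, and 33.8% had done so by hour 14. The mutant libraries are from older worms of another course, so hours and culture differ as well as genotype, and their part in these levels was not tested.

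Rising genes were unevenly spread over the chromosomes. On chromosome X 158 of 2060 tested genes rose (7.67%), against 12.7% on chromosome V, 12.8% on III, 16.9% on II, 18.6% on I and 20.2% on IV. Rising genes low in glp-4(bn2) were 31 of 2060 tested genes on chromosome X, the lowest share. Elsewhere the shares ran from 7.95% on V (229 of 2880) to 15.2% on IV (372 of 2446). The rising genes not low in the mutant made up 6.17% on X and 3.06% to 4.99% elsewhere. Falling genes were 9.13% of tested genes on X, 8.51% on V and 3.28% to 5.46% on the other 4. Genes are not independent replicates, and the shares are given without a test.

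**Figure D4:**
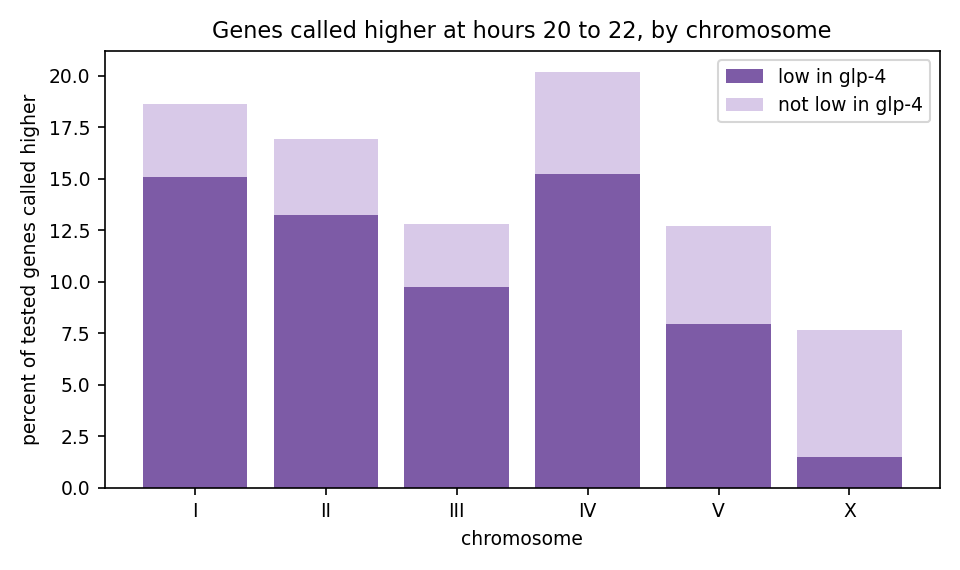
Percent of the tested genes of each chromosome that rose between hours 12 to 14 and hours 20 to 22, with each bar split into genes low in glp-4(bn2) (dark) and not low (light). Chromosome X has the lowest bar, 7.67%, and the smallest dark share, and chromosome IV the highest, 20.2%, of which 15.2% is dark.

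The same contrast was made in continuously grown N2, with 3 libraries at sample-name hours 26 to 28 and 3 at hours 34 to 36, which the first comparison does not use. The labels describe slow growth of these worms, and the hour in a sample's name is taken here in place of the elapsed time. In that course 2250 of 14936 tested genes rose (15.1%) and 653 fell (4.37%). Of the 2104 genes that rose after dauer and were tested there, 1814 rose (86.2%) and none fell by edgeR, and 2095 had a positive log2 fold change. Of the 2117 genes that rose there and were tested after dauer, 85.7% rose after dauer as well. Of 811 falling genes 424 (52.3%) fell there too and 1 rose, and 804 (99.1%) had a negative log2 fold change. Across 14527 genes tested in both courses the log2 fold changes had a Pearson r of 0.96 and a Spearman rho of 0.89, as a description over genes that share their libraries.

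The groups had the following counts in the continuous course. There members near 0 early, such as vit-5, had again passed the filter on low counts through the late window. Their rise says little more than late detection. This does not hold for every major sperm protein gene, since msp-40 had 0.458, 0.552 and 1.45 CPM at hours 26 to 28. All 15 tested major sperm protein genes, 46 of 48 other sperm genes, 21 of 27 oocyte and maternal genes, all 13 eggshell genes and all 6 vitellogenins rose. Meiosis genes rose in 7 of 26 cases, P granule and small RNA genes in 8 of 16 and genes of replication and division in 6 of 30. him-3 had a log2 fold change of 1.22 there and 0.25 after dauer, and cyb-3 had 0.58 there and 1.80 after dauer. These pairs of values do not show a difference, since the test of the difference between the courses passed for neither.

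That test, the difference between the 2 changes in 1 edgeR fit over the 12 libraries, gave 3 of 15348 genes (0.0195%), all with the larger change after dauer, and 853 genes had an unadjusted p under 0.05. mtl-2 went from 5.78 ± 0.482 to 80.7 ± 17.1 CPM after dauer (mean ± SD, n = 3 libraries) and from 114 ± 25.6 to 144 ± 20.1 CPM in the continuous course, a difference of 3.53 ± 0.34 on the log2 scale (adjusted p = 0.0186). ttr-45 (WBGene00044737), of the transthyretin-related family, went from 4.88 ± 0.559 to 65.6 ± 8.87 CPM and from 18.0 ± 2.49 to 76.2 ± 11.5 CPM (1.70 ± 0.20, adjusted p = 0.0463). Its call was lost with RLE factors (adjusted p = 0.0739) and with scaling by library size (0.122). tag-18 went from 40.7 ± 0.664 to 129 ± 2.97 CPM and from 151 ± 4.68 to 192 ± 11.1 CPM (1.36 ± 0.15, adjusted p = 0.0284). In all 3 the late levels of the courses were nearer to each other than the early ones. The 3 were named after their values were seen, and growth, hour and course differ together between these libraries, so their parts cannot be told apart.

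**Figure D5:**
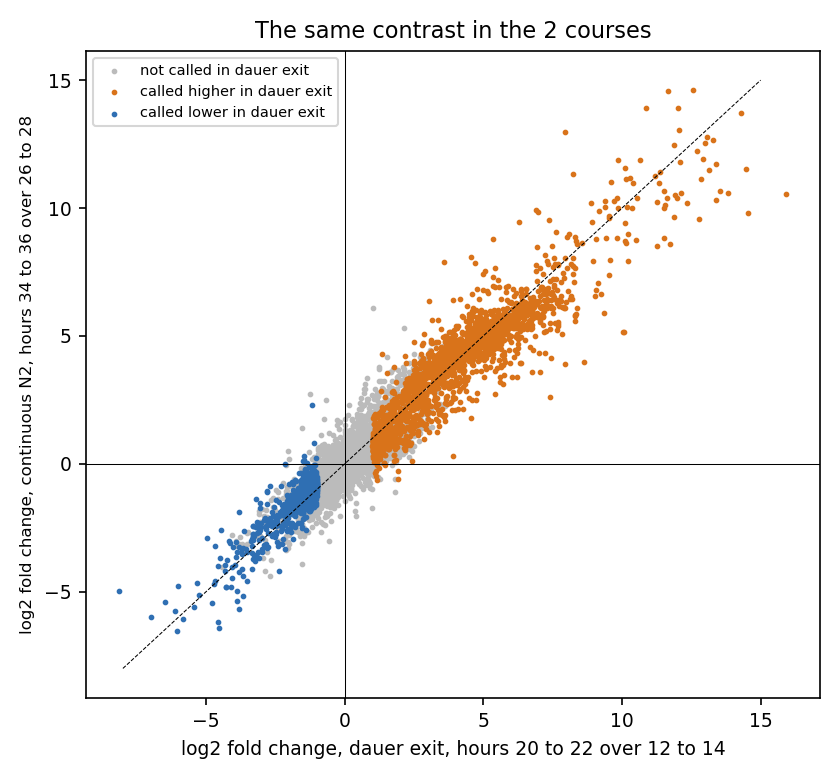
Log2 fold change of each of 14527 genes after dauer (horizontal, hours 20 to 22 over 12 to 14) and in continuous N2 (vertical, hours 34 to 36 over 26 to 28), with genes that rose after dauer in orange, genes that fell in blue and the dashed line marking equal changes. The orange points follow the dashed line, and 2095 of the 2104 lie above 0 on the vertical axis.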

How the data were processed

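Polyadenylated RNA of whole worms had been sequenced from a stranded kit, per the labels' protocols, in 45 libraries, 1 per time point. The authors deposited raw read counts per gene for 20182 genes as whole numbers; no label or file header names the aligner, counting tool, annotation or genome build. A second deposited table of the same libraries was not used. Symbols were matched for 18778 genes (93.0%), and coordinates are those of WBcel235. Of the entries of 23 gene lists, 5 had no match.

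The windows were compared with edgeR 4.0.16 in R 4.3.3 (TMM factors, filterByExpr, quasi-likelihood F-test, Benjamini-Hochberg adjustment over all tested genes), called at an adjusted p under 0.05 and an absolute log2 fold change of at least 1. Standard errors are the fold change divided by the square root of F. The script was tested on simulated counts with 200 changed genes. No 2 of the 6 libraries were alike (smallest chi-square per gene 41.08). Alternatives were RLE factors, library size only, no filter, DESeq2 1.42.0, a replicate block, shifted windows and each library left out.

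The members, lists and tests were chosen with earlier results of these data known. Shares of first use, of low levels in glp-4, of chromosomes and of windows that do not overlap were added after the data were seen. Named genes are 34 fixed genes, the 10 largest called changes in each direction with at least 10 CPM in the higher window, and, from every list that has 3 or more called members, the 4 that changed most. Floors of 3 counts cover counting error only.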

Additional observations from a re-analysis of the deposited data

Results flagged for a closer look

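In 3 genes the change differed between dauer exit and continuous N2 by edgeR's test of the difference. It was larger after dauer by 3.53 (log2) for the metallothionein gene mtl-2, by 1.70 for ttr-45 and by 1.36 for tag-18. With 2 other scalings mtl-2 and tag-18 passed and ttr-45 did not. In glp-4(bn2), a single library stood apart from the other 6 in the summed level of 2 lists: the library of hour 52 had the lowest sum of oocyte and maternal genes, 199 CPM, and the lowest sum of body-wall muscle genes, 20605 CPM. Chance marks about 1 in 20 groups in this way where the libraries have no order, and 23 lists were examined. Hour 52 is the last of this course, so that rate may not hold here. No statement on body-wall muscle above rests on that library, and the oocyte sum there is low in all 7.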

How the results depend on the processing

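Rising genes numbered 1505 to 2337 and falling genes 364 to 994 when 1 library was left out, with the low counts without hours 13 or 21, the middle of each window. In continuous N2 the ranges were 1938 to 2363 and 321 to 683, with 323 without hour 27, 435 without hour 28 and 321 without hour 35. Counts of falling genes therefore varied more with the hour left out than those of rising genes. Leaving out an hour also changes the spread within its window, which holds any trend across the hours. Scaling by library size alone moved the median change of all genes to -0.10 and gave 2070 rising and 1126 falling genes; DESeq2 gave 2592 and 1111. The difference between the courses passed for 1 gene with the replicate block, mtl-2 (3.48, adjusted p = 0.0318, edgeR); tag-18 (1.36, 0.452) and ttr-45 (1.70, 0.136) did not pass. Meiosis genes rose in 1 case with library size only, in 4 with windows 11-13 and 20-22, and in 1 to 3 with a library left out. Vitellogenins rose in 1 to 5 cases with a library left out. Adult cuticle collagens rose in 4 cases with either pair of shifted windows and in 2 to 4 with a library left out. Of 1220 results for single named genes 74 lost their call, 5 gained one and none changed direction. Of the 2190 rising and 849 falling genes, 2079 and 614 were called again with windows 11-13 and 20-22, 9 hours apart, and 1921 and 533 with windows 11-13 and 19-21.

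Libraries 8 hours apart share no origin in the labels. The correlation of their deviations from the window means was 0.14 for hours 12 and 20, -0.08 for 13 and 21 and 0.09 for 14 and 22. Pairing them as a replicate block gave 2056 rising and 637 falling genes. The cause of these shifts was not tested. Depth limits statements on genes near 0 CPM, where 1 count is about 0.05 CPM.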
